A study of Rattus norvegicus with 15 samples.

Results

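The comparison described here set rats that received pMT together with vitamin D (pMT/VitD) against rats that received vitamin D alone (VitD), with surgery in both groups, which asks how muscle gene expression differed with pMT when vitamin D was given in either case. It used 7 of the 15 RNA-sequencing libraries of the series, 4 of the pMT/VitD group and 3 of the VitD group, chosen by the sample labels alone. All rats were wild-type male Sprague Dawley animals aged 12 weeks, and the tissue was multifidus, the deep paraspinal muscle of the back. The surgical groups of the study had a left hemilaminectomy with ligation of the L5 spinal nerve. The term pMT stands for mitochondria isolated from human plasma, which makes the graft xenogeneic in the rat. The pMT/VitD rats were given 25 µg pMT with 150 µg cholecalciferol (vitamin D3) at each of 2 sites in the left paraspinal muscle, 50 µg and 300 µg in all. The VitD rats were given the same cholecalciferol dose without pMT. Whether they received the buffer that carries pMT, and on which days either VitD group was injected, is not given in the sources used here. The other 8 libraries came from uninjured rats (Control, 2), rats with surgery and no treatment (Surgery, 2) and rats with surgery and pMT (pMT, 4). They entered the same statistical fit, so that the spread between libraries was estimated over all 15. Control values are given as reference levels for many genes, and Surgery values only where named.

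When a skeletal muscle loses its nerve supply or is injured, fibres re-express genes of developing muscle, such as embryonic myosin and the fetal acetylcholine receptor, and the space between fibres fills with macrophages, fibroblasts and collagen. Adult fast fibres depend on glycolysis, and all fibres carry mitochondria whose respiratory chain is encoded partly in the nucleus and partly in the mitochondrial genome. Vitamin D acts through the nuclear receptor Vdr, which is sparse in adult muscle.

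The libraries of these groups were not equally alike. Total counts were 52342134 to 62249505 in the pMT/VitD libraries and 61902001 to 71377227 in the VitD libraries. The factors by which TMM, a scaling that assumes most genes to be unchanged, corrected library size were 0.849 to 0.982 in pMT/VitD and 1.09 to 1.198 in VitD, so the groups did not overlap in this factor. Distances between libraries were taken as the standard deviation (SD) of the log2 ratios over 3129 well expressed genes. By this measure pMT/VitD library 4 lay 0.371 to 0.479 from the other pMT/VitD libraries, but 0.166 from Control library 1 and 0.194 from pMT library 2. In turn, pMT library 4 lay 0.178 from pMT/VitD library 1 but 0.365 to 0.550 from the other pMT libraries, and its TMM factor was 0.857. Why each of these libraries lay nearer to the other group was not tested. VitD library 1 lay 0.398 and 0.528 from the other VitD libraries, which were 0.153 apart, and VitD library 2 lay 0.0821 from Surgery library 2. The biological coefficient of variation was 21.5% in pMT/VitD and 20.5% in VitD, against 8.35% in Control and 4.74% in Surgery. The p-values rest on a spread pooled over all 15 libraries, with the tighter Control and Surgery libraries included. They do not rest on the spread of the compared groups alone. The labels do not say whether libraries came from separate rats, so p-values measure only the spread between libraries. Counts over gene lists are therefore also given without VitD library 1 or pMT/VitD library 4 where a count of 3 or more moved by over 1.5 times. Skeletal muscle marker genes summed to 76727 to 99375 transcripts-per-million (TPM) in pMT/VitD and 69850 to 95245 in VitD, and all 10 were detected.

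**Figure D1:**
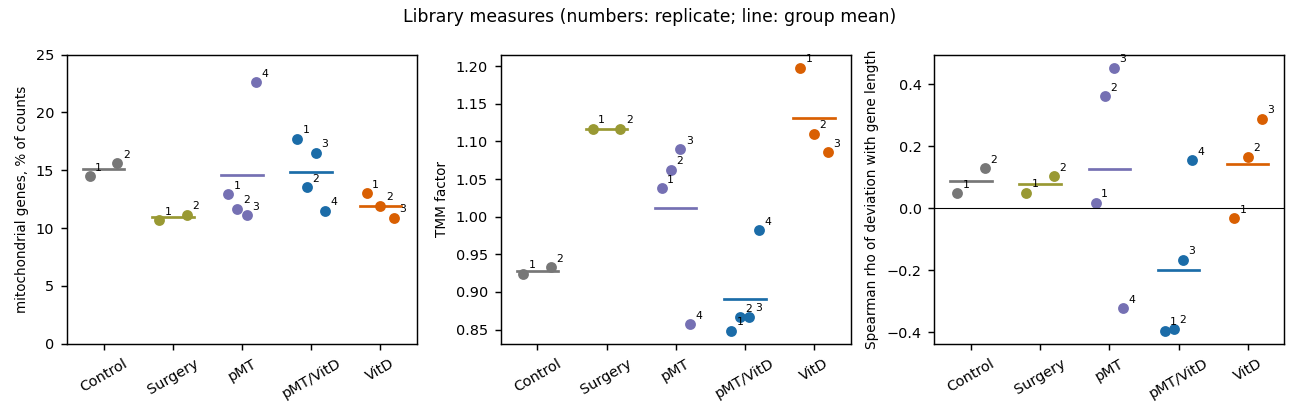
Each point is 1 library, numbered by replicate, in the 5 groups on the x axis, and each line is a group mean. The panels show the share of counts on mitochondrial genome genes (percent), the TMM factor, and the rank correlation between gene length and a library's deviation from the mean of all libraries. The pMT/VitD libraries had TMM factors of 0.849 to 0.982, all below the VitD libraries at 1.09 to 1.198, and pMT/VitD library 4 had the lowest mitochondrial share and the highest TMM factor of its group.

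Many genes differed between the groups, and decreases outnumbered increases among the larger differences. Of 17201 genes tested with edgeR's quasi-likelihood test, 3766 had an adjusted p under 0.05 (21.9%), of which 1662 (9.66%) were higher and 2104 (12.2%) were lower in pMT/VitD. At least 2-fold differences were found for 239 higher and 659 lower genes among those called, and at least 4-fold differences for 35 higher and 148 lower genes. All libraries of one group lay beyond all of the other for 28.6% of genes. Members of gene lists were named for their abundance or for a small p in this same comparison. A lack of overlap given for them below is therefore a description and no separate evidence. The count depended on which libraries entered. It was 1855 (801 higher, 1054 lower; 4.69% and 6.17% of genes tested) without VitD library 1, 4561 (2078 higher, 2483 lower; 12.1% and 14.4%) without pMT/VitD library 4, and 1816 (723 higher, 1093 lower; 4.48% and 6.77%) in a fit of the 7 libraries alone. Scaling by library size only, without TMM, moved the median log2 fold change of all genes to -0.34 and turned the split into 393 higher and 5365 lower genes, so that 6.83% of calls were higher instead of 44.1%. Differences are given under TMM unless stated, and small increases have to be read against that shift. Adjusted p-values are from the fit of all 15 libraries unless stated. For the gene Ankrd1, described below, the value was 0.000169 there and 0.00923 in the fit of the 7 libraries alone. For ND6 it was 0.0444 and 0.0289. With library size only 33.5% of all genes tested were called, nearly all of them lower. List counts under that scaling have to be read against this share. Single-gene alternatives were run for 133 of the genes named here. Of the 109 called among them, 18 kept their direction but lost the call with library size only. These were Des, ND2, ND5, ND6, Ndufb8, Atp5a1, Mrpl43, Pink1, Esrra, Idh3g, Ckm, Prkab1, Hbb, Hba-a1, Alas2, Cyp27a1, Rxrg and Dusp1.

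Ankrd1 and genes of embryonic muscle were among the larger decreases. Ankrd1 (gene 27064), a stretch- and injury-induced nuclear protein of muscle, was at 7.93, 8.47, 7.07 and 14.3 counts-per-million (CPM) in the 4 pMT/VitD libraries and at 752, 267 and 84.7 in the 3 VitD libraries. Each pMT/VitD value lay near the Control values of 10.3 and 10.4 CPM, and none reached the lowest VitD value. The Surgery libraries were at 244 and 253 CPM for Ankrd1, and at 186 and 178 for Actc1, described below. For Ankrd1, pMT/VitD against VitD, this was a log2 fold change of -5.28 on a standard error of 0.57 (adjusted p = 0.000169). Myh3 (gene 24583), the embryonic myosin heavy chain, was at 22.3, 16.9, 27.8 and 30.9 CPM in pMT/VitD and 993, 343 and 113 in VitD, with Control at 30.7 and 21.9 (log2 fold change -4.30, standard error 0.65, adjusted p = 0.000955). Actc1 (gene 29275), the cardiac alpha-actin that fetal skeletal muscle also uses, was at 28.7, 31.8, 16.8 and 21.1 CPM against 445, 184 and 88.5 (log2 fold change -3.28, standard error 0.40, adjusted p = 0.000292). Tnnt2, the cardiac and embryonic troponin T, was at 5.42, 6.17, 2.19 and 2.34 CPM against 50.995, 21.2 and 10.6 (log2 fold change -2.77, standard error 0.45, adjusted p = 0.00141). In all 4 genes VitD library 1 held the highest value of the 7, and without it the log2 fold changes were -4.22 for Ankrd1, -3.22 for Myh3, -2.47 for Actc1 and -1.98 for Tnnt2, all still called. Ankrd1, Myh3 and Actc1 were among the 10 genes named for the largest decreases, and Tnnt2 was not.

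The promoters of Myh3, Actc1, Tnnt2 and Chrna1 are shown because these genes of the embryonic and denervated muscle programme moved together. The sequences come from RefSeq on the GRCr8 assembly, a later build than the rn6 assembly of the counts, and run from 250 bases before to 50 bases after the annotated gene start, 5′ to 3′. Capitals mark matches on either strand to CAGCTG (an E-box bound by myogenic factors), CATTCC (the MCAT element), TATAAA (the TATA box) or the CArG box of serum response factor. The Myh3 window is chr10:52268935-52269234, plus strand, that of Actc1 chr3:121271778-121272077, minus strand, that of Tnnt2 chr13:49818873-49819172, plus strand and that of Chrna1 chr3:78877304-78877603, minus strand.
Myh3: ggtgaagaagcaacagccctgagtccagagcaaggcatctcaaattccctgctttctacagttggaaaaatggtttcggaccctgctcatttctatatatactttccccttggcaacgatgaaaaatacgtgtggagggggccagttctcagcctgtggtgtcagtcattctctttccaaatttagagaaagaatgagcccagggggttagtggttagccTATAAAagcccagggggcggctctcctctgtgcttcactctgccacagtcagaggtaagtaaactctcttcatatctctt
Actc1: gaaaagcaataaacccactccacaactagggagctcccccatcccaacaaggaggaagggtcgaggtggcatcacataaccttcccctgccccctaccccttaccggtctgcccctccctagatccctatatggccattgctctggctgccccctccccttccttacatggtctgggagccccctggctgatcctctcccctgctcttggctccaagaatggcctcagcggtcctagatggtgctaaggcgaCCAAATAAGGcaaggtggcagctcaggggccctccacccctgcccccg
Tnnt2: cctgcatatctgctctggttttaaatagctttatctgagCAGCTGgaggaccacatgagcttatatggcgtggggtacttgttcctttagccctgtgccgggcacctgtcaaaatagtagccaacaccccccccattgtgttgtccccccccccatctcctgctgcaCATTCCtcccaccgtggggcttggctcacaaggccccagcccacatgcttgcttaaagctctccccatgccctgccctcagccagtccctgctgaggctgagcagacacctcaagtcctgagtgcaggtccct
Chrna1: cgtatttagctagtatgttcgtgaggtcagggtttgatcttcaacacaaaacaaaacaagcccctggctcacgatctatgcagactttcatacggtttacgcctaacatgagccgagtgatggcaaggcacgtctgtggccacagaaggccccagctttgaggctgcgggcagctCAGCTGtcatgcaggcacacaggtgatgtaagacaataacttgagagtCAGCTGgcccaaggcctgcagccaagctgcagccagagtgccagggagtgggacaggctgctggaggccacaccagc
In Myh3 the TATAAA match begins at base -30 from the start, and in Actc1 the CArG box lies just after the start, from base 2 to 11. Tnnt2 holds CAGCTG from base -211 and CATTCC from base -83, and Chrna1 holds CAGCTG 2 times, from bases -75 and -27. Such matches are common. Among all 27457 windows of this length, 15.1% held CAGCTG, 13.9% CATTCC, 14.3% TATAAA and 1.64% a CArG box, and CAGCTG was in 18.02% of the windows of genes called lower and 16.5% of those of all genes tested that had a window. The windows of Myog and Cdkn1a held none of these motifs, and no marked match overlaps another.

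Of 11 developmental sarcomere and cytoskeletal genes tested, 7 fell and 1 rose, with a median log2 fold change of -0.82 beside 0.00 for all genes, where 12.2% of genes fell and 9.66% rose. Without VitD library 1 the numbers were 6 and 1. The gene that rose was Des, the desmin of adult fibres, at 4985 to 5749 CPM against 2780.0 to 3768 (log2 fold change 0.69, standard error 0.14, adjusted p = 0.00355). Vim, the vimentin of immature muscle and of connective tissue cells, was at 386, 317, 288 and 276 CPM against 790.4, 486 and 357 (log2 fold change -0.78, standard error 0.23, adjusted p = 0.0244). Library 1 of pMT/VitD lay above VitD library 3, so the groups overlapped, and the call was lost when pMT/VitD library 2, pMT/VitD library 3 or VitD library 1 was left out (highest adjusted p = 0.172) and in the fit of the 7 libraries alone.

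Genes that mark denervated fibres and the neuromuscular junction were also lower. Among 24 tested, 11 fell and 2 rose, and without VitD library 1 these were 8 and 1. Chrna1, the alpha subunit of the muscle acetylcholine receptor, was at 6.94, 7.17, 4.99 and 5.12 CPM in pMT/VitD and 24.5, 14.5 and 10.9 in VitD (log2 fold change -1.46, standard error 0.23, adjusted p = 0.00109). Ncam1, an adhesion molecule that spreads over denervated fibres, was at 12.3, 11.4, 11.7 and 11.7 CPM against 43.9, 30.3 and 20.2 (log2 fold change -1.42, standard error 0.19, adjusted p = 0.000369). For both genes the Control values (4.86 and 5.23 CPM for Chrna1, 13.5 and 11.3 for Ncam1) lay among or beside those of pMT/VitD, and the groups did not overlap. Myog, the myogenic factor induced by denervation and differentiation, was at 27.6, 22.3, 21.1 and 18.3 CPM against 59.1, 47.2 and 44.8 (log2 fold change -1.17, standard error 0.15, adjusted p = 0.000319). Cdkn1a, a cell cycle inhibitor on the same list, was at 13.3, 13.98, 10.5 and 7.96 CPM against 114, 50.3 and 32.1 (log2 fold change -2.52, standard error 0.32, adjusted p = 0.0003302), and at -1.85 without VitD library 1. Sh3glb1, an endophilin of membrane remodelling, rose (log2 fold change 0.73, standard error 0.16, adjusted p = 0.00544). In the list of satellite cell and myogenic regulators 6 of 21 genes fell and none rose. These included Tmem8c (myomaker, needed for myoblast fusion) at 1.19 to 1.48 CPM against 2.62 to 6.2004 (log2 fold change -1.68, adjusted p = 0.000799), Heyl, a Notch target (log2 fold change -0.62, adjusted p = 0.00107), and Megf10, a satellite cell receptor (log2 fold change -0.54, adjusted p = 0.00182). Megf10 was no longer called once the trend of fold change with gene length was removed (adjusted p = 0.0686).

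**Figure D2:**
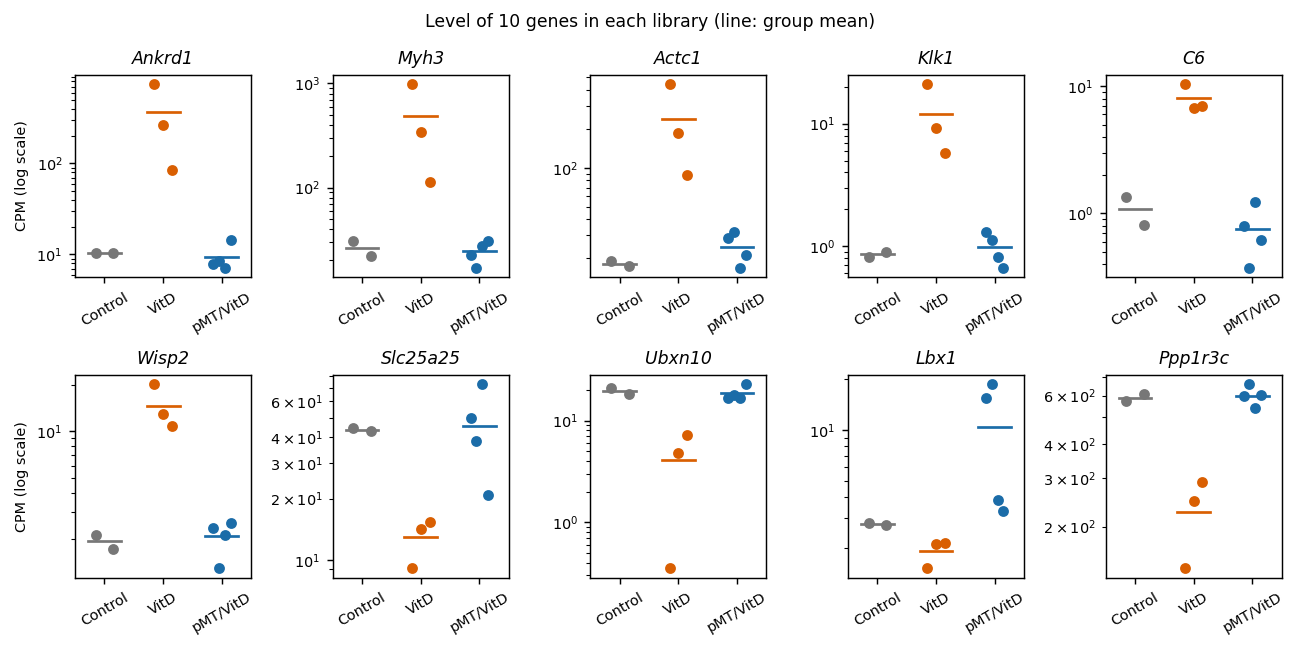
CPM on a log axis for 10 genes in the Control, VitD and pMT/VitD groups, with 1 point per library and a line at each group mean. Ankrd1 ran from 7.07 to 14.3 CPM in pMT/VitD and 84.7 to 752 in VitD, and Ppp1r3c from 539 to 661 and 141 to 291, with the Control libraries on the pMT/VitD side in both.

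The other genes with the largest decreases had varied functions. Ctxn3, which encodes the small membrane protein cortexin 3, was at 1.12, 0.908, 0.7096 and 0.545 CPM against 17.03, 8.37 and 5.32 (log2 fold change -3.64, standard error 0.35, adjusted p = 6.04e-05). Klk1, a kallikrein that releases kinins, was at 1.297, 1.13, 0.817 and 0.662 CPM against 21.2, 9.28 and 5.77 (log2 fold change -3.63, standard error 0.38, adjusted p = 0.000103). C6, a component of the complement membrane attack complex, was at 0.7995, 0.371, 1.23 and 0.623 CPM against 10.5, 6.77 and 6.99 (log2 fold change -3.43, standard error 0.42, adjusted p = 0.000292). No pMT/VitD library overlapped a VitD library in these, as the rule that named them required. Wisp2, a secreted matricellular protein now called Ccn5, was at 2.38, 1.298, 2.13 and 2.57 CPM against 20.2, 12.8 and 10.8 (log2 fold change -2.80, standard error 0.24, adjusted p = 2.06e-05), and C1qtnf3, a secreted C1q-like adipokine, at 2.77, 1.98, 2.39 and 1.83 against 28.1, 12.05 and 6.299 (log2 fold change -2.79, standard error 0.37, adjusted p = 0.000369). RGD1311744, an RNA of uncertain coding status, fell by 3.18 on the log2 scale, and RGD1564861, similar to an immunoglobulin kappa variable region and so liable to share reads with its relatives, by 2.83. Without VitD library 1 the log2 fold changes were -2.94 for Klk1, -2.03 for C1qtnf3, -2.34 for RGD1311744 and -2.23 for RGD1564861, all still called, while Ctxn3, C6 and Wisp2 moved by less than 1.5-fold.

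Of the 10 genes named for the largest increases, 4 were noncoding RNAs or pseudogenes. LOC691532, a pseudogene of the ribosomal protein gene Rps25 in the GRCr8 annotation, whose reads cannot be separated with certainty from those of its relatives, was at 53.9, 60.2, 33.8 and 27.6 CPM in pMT/VitD and at 0.164, 0.189 and 0.169 in VitD, which is 13 to 14 reads per VitD library. It was at 29.6 and 29.9 CPM in Control, 18.9 to 52.9 in pMT and 0.194 and 0.177 in Surgery, so that it was near 0 in every library of the 2 groups with surgery and no pMT and in no other library. The fitted log2 fold change was 7.97 (standard error 0.50, adjusted p = 1.48e-06). Slc25a25, a calcium-regulated mitochondrial carrier of ATP-Mg and phosphate, was at 49.98, 38.2, 73.02 and 20.9 CPM against 9.08, 14.3 and 15.4 (log2 fold change 1.82, standard error 0.32, adjusted p = 0.00185). Pla2g2c, a secreted phospholipase A2, was at 10.4, 12.5, 6.47 and 9.38 CPM against 0.257, 1.75 and 2.65 (log2 fold change 2.65, standard error 0.49, adjusted p = 0.00247), and Ubxn10, a protein of cilia, at 16.5, 17.96, 16.5 and 22.8 against 0.351, 4.76 and 7.21 (log2 fold change 2.17, standard error 0.57, adjusted p = 0.0156). In both the lowest value was that of VitD library 1, and without VitD library 3 the log2 fold changes became 3.30 for Pla2g2c and 2.87 for Ubxn10. Without both pMT/VitD library 4 and VitD library 1 that of Ubxn10 was 1.503, and Ubxn10 was not called in the fit of the 7 libraries alone (adjusted p = 0.0765).

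Among the remaining increases the pMT/VitD libraries fell into unequal pairs. Lbx1, a homeobox factor of migrating muscle precursors, was at 15.5, 18.7, 3.85 and 3.31 CPM in pMT/VitD and 1.51, 2.096 and 2.15 in VitD (log2 fold change 2.43, standard error 0.64, adjusted p = 0.0168). Libraries 1 and 2 of pMT/VitD were far above libraries 3 and 4, which lay close to the Control values of 2.82 and 2.72, and the call was lost without VitD library 1 or VitD library 2 (highest adjusted p = 0.0699). The noncoding RNA LOC102551352 was also highest in pMT/VitD libraries 1 and 2, at 20.9, 22.005, 3.35 and 6.33 CPM against 0.737, 1.499 and 2.54 (log2 fold change 3.05, adjusted p = 0.0117, and 0.0548 without VitD library 1). LOC102548910, another noncoding RNA, was at 45.5, 46.3, 22.7 and 10.96 against 3.52, 7.81 and 10.5 (log2 fold change 2.11, adjusted p = 0.0211) and lost its call without pMT/VitD library 2, VitD library 1 or VitD library 2 (highest adjusted p = 0.0872). Barx2, a homeobox factor of muscle precursors, was at 7.43, 5.82, 3.397 and 2.96 CPM against 0.819, 1.37 and 1.77 (log2 fold change 1.896, standard error 0.43, adjusted p = 0.00746). LOC100911217, similar to adipogenin, was at 20.6, 18.1, 14.6 and 11.03 CPM against 2.504, 4.904 and 6.26 (log2 fold change 1.82, standard error 0.40, adjusted p = 0.00668), and the noncoding LOC100912629 at 8.92, 11.4, 6.41 and 6.66 against 1.56, 2.299 and 2.82 (log2 fold change 1.91, standard error 0.23, adjusted p = 0.000258).

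Collagen and matrix genes were lower as a group. Of 37 tested, 30 fell and none rose, with a median of -1.07; 21 fell without VitD library 1, 23 in the fit of the 7 libraries alone and 33 without pMT/VitD library 4. Their summed level was 1636 to 2754 TPM in pMT/VitD and 3854 to 7126 in VitD, against 2309 and 2330.4 in Control. Postn, the periostin of scar and repair, was at 62.7, 53.9, 44.3 and 80.7 CPM in pMT/VitD and 613, 318 and 196 in VitD (log2 fold change -2.64, standard error 0.33, adjusted p = 0.000292). Lox, the enzyme that cross-links collagen, was at 6.03, 7.34, 9.35 and 10.6 CPM against 74.4, 38.7 and 22.2 (log2 fold change -2.44, standard error 0.31, adjusted p = 0.000332). No library of one group reached the other in either gene, and Control lay at 59.6 and 67.3 CPM for Postn and 8.65 and 13.02 for Lox. Col3a1, a fibrillar collagen, was at 853 to 1310.2 CPM in pMT/VitD and 1901 to 3907 in VitD (log2 fold change -1.37, adjusted p = 0.000849). Col14a1, a fibril-associated collagen, had a log2 fold change of -1.36 (adjusted p = 0.000255), Sparc, a collagen-binding matrix protein, one of -0.79 (adjusted p = 0.004802) and Serpinh1, the collagen chaperone, one of -0.90 (adjusted p = 0.000724). Dcn, the proteoglycan decorin and one of the most abundant of the list, was at 539 to 692 CPM against 691 to 744 and was not called (log2 fold change -0.25, adjusted p = 0.165).

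In the pathway of TGF-beta and myostatin 8 of 23 genes fell and 1 rose, and without VitD library 1 these were 4 and 0. Fstl1, a secreted follistatin-like protein, was at 141, 116, 134 and 137 CPM against 361, 255 and 214 (log2 fold change -1.07, standard error 0.15, adjusted p = 0.0004997). Tgfbi, a matrix protein induced by TGF-beta, was at 46.4 to 61.3 CPM against 94.6 to 119.6 (log2 fold change -0.92, adjusted p = 0.000436), and Ltbp1, which tethers latent TGF-beta to the matrix, at 14.6 to 22.8 against 33.2 to 42.9 (log2 fold change -1.01, adjusted p = 0.00109). Fst, the follistatin that binds activin and myostatin, was at 6.01, 5.95, 5.93 and 5.82 CPM against 10.96, 9.23 and 9.04 (log2 fold change -0.72, adjusted p = 0.00242), and fell too. Among 12 markers of fibro-adipogenic progenitors, the mesenchymal cells between fibres, 7 fell and none rose, but only 2 fell without VitD library 1 and 2 in the fit of the 7 libraries alone. Clec3b, the tetranectin of these cells, had a log2 fold change of -0.57 (adjusted p = 0.00552), and Gsn, the actin-severing gelsolin, one of 0.35 (adjusted p = 0.201), which was not called. Pdgfrb, a marker of pericytes, was at 23.1 to 28.1 CPM against 31.9 to 53.7 (log2 fold change -0.67, adjusted p = 0.006602), while 2 of the 11 pericyte and smooth muscle markers fell in all, 5 without pMT/VitD library 4 and 1 without VitD library 1. In bulk tissue, fewer cells of a type and less RNA per cell cannot be told apart.

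Macrophage markers were lower, and their count did not depend on VitD library 1. Of 19 tested, 16 fell and none rose, with a median of -1.19, and 16 also fell without VitD library 1 and in the fit of the 7 libraries alone. Their summed level was 141 to 205 TPM in pMT/VitD, 348 to 618 in VitD and 177 to 179 in Control. Lyz2, the lysozyme of macrophages, was at 83.99, 81.6, 65.2 and 76.1 CPM against 240.2, 158 and 122 (log2 fold change -1.18, standard error 0.17, adjusted p = 0.000612). Fcgr2b, an inhibitory Fc receptor, was at 1.25, 1.28, 0.925 and 1.81 CPM against 8.25, 5.73 and 3.47 (log2 fold change -2.14, standard error 0.27, adjusted p = 0.000319). Lyve1, a hyaluronan receptor of resident macrophages and lymphatic vessels, was at 10.3, 10.3, 9.37 and 12.7 CPM against 37.3, 25.5 and 21.1 (log2 fold change -1.39, standard error 0.17, adjusted p = 0.000318). In all 3 genes every pMT/VitD library lay below every VitD library, as in 15.6% of all genes tested. Trem2, a lipid-sensing receptor of macrophages, and Tyrobp, the adaptor it signals through, had log2 fold changes of -1.23 (adjusted p = 0.000377) and -0.76 (adjusted p = 0.003002).

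Complement and antigen presentation genes followed. Of 27 complement genes tested, 17 fell and 1 rose, and without VitD library 1 these were 12 and 1. C4a, the opsonin precursor of the classical pathway, was at 5.86, 6.02, 7.89 and 7.67 CPM against 44.5, 38.6 and 34.3 (log2 fold change -2.51, standard error 0.16, adjusted p = 1.48e-06), with Control at 8.66 and 8.53. The copies of C4 in the rat are close to each other in sequence, so its reads may be split between them. C2, the protease that cuts with it, was at 22.2, 18.6, 19.9 and 23.2 CPM against 53.2, 43.5 and 40.3 (log2 fold change -1.12, standard error 0.10, adjusted p = 4.57e-05). C1qa, a chain of the initiating C1q, fell as well (log2 fold change -1.52, adjusted p = 0.000928), while Clu, the abundant inhibitor clusterin, was at 182 to 225 CPM against 213 to 229 (adjusted p = 0.395). Of 10 MHC class II genes 7 fell and none rose, with and without VitD library 1. They included Cd74, the invariant chain, at 231, 199.6, 215 and 269 CPM against 448, 416 and 410.3 (log2 fold change -0.89, standard error 0.12, adjusted p = 0.000461). RT1-Da, a class II alpha chain of the polymorphic rat locus, had a log2 fold change of -0.80 (adjusted p = 0.0006901), and Ciita, their transcriptional activator, one of -1.16 (adjusted p = 0.0004997).

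Other immune lists held a smaller share of called genes. Their medians were not all smaller, at -1.18 for T and NK cell markers, where all 13 were below 0. The median was -0.85 for B and plasma cell markers, beside -0.83 for MHC class II. Among 29 MHC class I and interferon genes 6 fell and none rose; Mx2, an interferon-induced GTPase, was called (log2 fold change -0.82, adjusted p = 0.0005199) and B2m, the light chain of class I, was not (log2 fold change -0.35, adjusted p = 0.148). Of 22 cytokine and chemokine genes 6 fell and 1 rose, but 4 fell and none rose without VitD library 1, and 2 fell and none rose in the fit of the 7 libraries alone. Cxcl13, the chemokine that attracts B cells, was at 0.173, 0.222, 0.409 and 0.3698 CPM against 3.12, 2.39 and 1.84 (log2 fold change -3.05, standard error 0.36, adjusted p = 0.000251), and Ccl6, a macrophage chemokine, at 6.03, 5.26, 8.58 and 8.02 against 27.7, 22.8 and 18.2 (log2 fold change -1.72, standard error 0.18, adjusted p = 0.000107). Of 13 T and NK cell markers 2 fell, among them Cd4, which rat macrophages also carry (log2 fold change -1.18, adjusted p = 0.00134). None of the 8 B and plasma cell markers was called in either direction. Of 9 neutrophil markers 1 rose and 1 fell, where 9.66% of all genes rose and 12.2% fell. These calls were reduced to 1 lower T and NK cell marker and no neutrophil marker without VitD library 1.

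**Figure D3:**
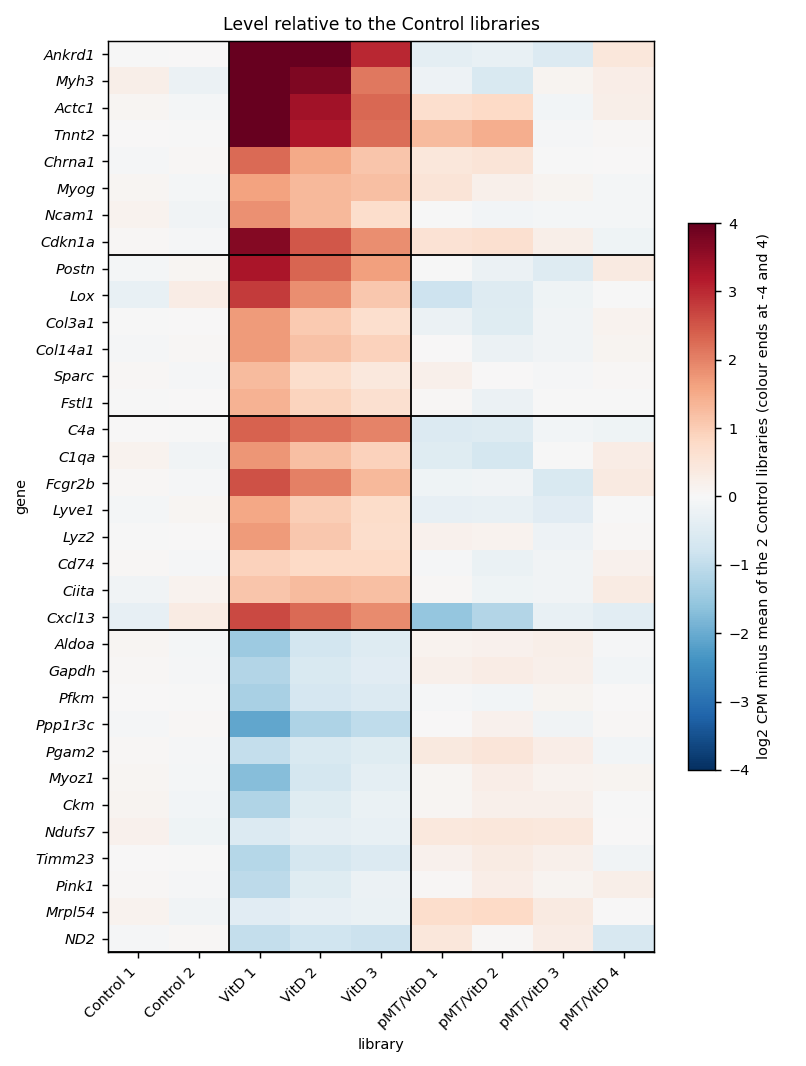
Colours give the log2 CPM of 34 genes in the 2 Control, 3 VitD and 4 pMT/VitD libraries minus the Control mean of the gene, from blue (lower) to red (higher), with the colour scale ending at 4. Decreases of the embryonic, matrix, macrophage and complement genes showed as red VitD columns beside near-white pMT/VitD columns, and VitD library 1 reached 752 CPM for Ankrd1.

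Genes of mitochondria leaned upwards by small amounts that the scaling and gene length affected. The mitochondrial genome has 13 protein genes, which held 17.7%, 13.5%, 16.5% and 11.5% of counts in the pMT/VitD libraries and 13.03%, 11.9% and 10.9% in the VitD libraries. The group means were 14.8% ± 2.83 (SD, n = 4) and 11.9% ± 1.08 (SD, n = 3), a difference of 2.88 percentage points that did not pass an exact two-sided permutation test (p = 0.171, where 35 relabellings allow no p below 0.0571). Control lay at 14.5% and 15.6%. Reads were aligned to the rat genome and the graft was human, and how any reads of human mitochondrial RNA were assigned is not given in the sources used here. All 13 genes were above 0 in log2 fold change and 3 were called: ND2 at 15937, 11929, 14230.4 and 7493 CPM against 5996, 6686 and 6416 (log2 fold change 0.96, adjusted p = 0.0463), ND5 (log2 fold change 0.76, adjusted p = 0.0443) and ND6 (log2 fold change 0.73, adjusted p = 0.0444), subunits of complex I. Without pMT/VitD library 4, 6 of the 13 were called. The calls of ND2, ND5 and ND6 were each lost when any 1 of the 7 libraries other than pMT/VitD library 4 was left out, with the highest adjusted p = 0.135 for ND2, 0.151 for ND5 and 0.142 for ND6. COX1, the catalytic subunit of complex IV and the most abundant of the 13, was at 59900.4, 44117, 58516 and 39863 CPM against 35292, 34322 and 31478 (log2 fold change 0.59, adjusted p = 0.145). ATP6, of the ATP synthase, and COX3, of complex IV, likewise were not called (log2 fold change 0.71, adjusted p = 0.152, and 0.68, adjusted p = 0.147).

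Nuclear genes of the respiratory chain were called in part. Of 37 complex I genes all had a log2 fold change above 0 and 13 rose, with a median of 0.58. The count was 33 without pMT/VitD library 4, 2 without VitD library 1 and 6 in the fit of the 7 libraries alone. When only library size was used for scaling, 2 rose and none fell, and the median was 0.22. Fold changes fell with gene length in this comparison (Spearman rho -0.237 across genes, which are not independent), these genes are short, and removing that trend brought the median to 0.26 with 19 genes called. Ndufs7, an iron-sulphur subunit, was at 259.7, 270.5, 265 and 198 CPM against 135, 152 and 160.5 (log2 fold change 0.74, standard error 0.15, adjusted p = 0.00418), and at 0.47 with the length trend removed. Ndufb8, an accessory subunit, was at 444, 475, 378 and 316 CPM against 288, 281 and 288 (log2 fold change 0.50, adjusted p = 0.0444), a call lost without any 1 library other than pMT/VitD library 4 (highest adjusted p = 0.1202) and in the fit of the 7 libraries alone. Of complexes II and III 4 of 14 genes rose, of complex IV 1 of 13 and of complex V 4 of 16, with none lower. The count of complex IV was near the share of all genes that rose, 9.66%. Without VitD library 1 the counts were 0, 0 and 1, where 4.69% of all genes rose. Without pMT/VitD library 4 they were 10, 10 and 8, where 12.1% of all genes rose. With library size only no gene of these complexes rose and 1 of complex IV fell, and with the length trend removed 3 genes of complex IV rose and 3 fell. Atp5a1, the alpha subunit of ATP synthase, was at 1482 to 1692 CPM against 1037 to 1299 (log2 fold change 0.40, adjusted p = 0.0251), and its call was lost without pMT/VitD library 2, VitD library 1 or VitD library 2 (highest adjusted p = 0.0714) and in the fit of the 7 libraries alone. Sdhb of complex II (log2 fold change 0.34, adjusted p = 0.0687), Uqcrc2 of complex III (log2 fold change 0.30, adjusted p = 0.129), Cox4i1 of complex IV (log2 fold change 0.52, adjusted p = 0.0989) and Atp5b, the beta subunit (log2 fold change 0.32, adjusted p = 0.125), were not called, and Sdhb, Uqcrc2 and Atp5b turned slightly below 0 when only library size was used.

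Genes that build and maintain mitochondria gave a similar picture. Of 73 genes of the mitochondrial ribosome 31 rose and none fell, with a median of 0.41 that became 0.21 with the length trend removed, and 13 rose without VitD library 1 and 50 without pMT/VitD library 4. With library size only the median was 0.06, where 2 rose and 2 fell. Mrpl54, a large-subunit protein, was at 226, 243, 182 and 142 CPM against 102, 111 and 118 (log2 fold change 0.85, standard error 0.20, adjusted p = 0.00829). Mrpl43 rose (log2 fold change 0.47, adjusted p = 0.00328) but not with the length trend removed (0.19, adjusted p = 0.196). In the list of mitochondrial dynamics, import and mitophagy 10 of 23 rose, against 4 without VitD library 1, and the median of the list, 0.28, turned to -0.04 with library size only, where 1 rose and 4 fell. Timm23, a pore of protein import, was at 299.6, 329.9, 302 and 239 CPM against 120.1, 164 and 182 (log2 fold change 0.91, standard error 0.17, adjusted p = 0.00272), and Pink1, the kinase that marks damaged mitochondria, at 231, 267, 240.2 and 261 against 107, 159 and 188 (log2 fold change 0.72, standard error 0.15, adjusted p = 0.00491). Among 24 regulators of mitochondrial biogenesis 3 rose and none fell, a share near the 9.66% of all genes. With library size only 0 rose and 5 fell, where 5365 of all 17201 genes fell. The count was 1 higher without VitD library 1, and 6 higher and 3 lower without pMT/VitD library 4. Esrra, a nuclear receptor that drives respiratory genes, was one of the 3 higher under TMM (log2 fold change 0.51, adjusted p = 0.00629), whereas Tfam, which packages mitochondrial DNA (log2 fold change 0.36, adjusted p = 0.0523), and Ppargc1a, the coactivator PGC-1alpha (log2 fold change 0.24, adjusted p = 0.1204), were not called. Of the TCA cycle 6 of 19 genes rose, among them Idh3g, a subunit of isocitrate dehydrogenase (log2 fold change 0.56, adjusted p = 0.00351), and Pdk2, a kinase that inhibits pyruvate dehydrogenase (log2 fold change 0.83, adjusted p = 0.00602). Only 2 TCA cycle genes rose without VitD library 1 and 2 in the fit of the 7 libraries alone, and with library size only 1 did. Of fatty acid oxidation 4 of 24 rose, among them Eci1, an enoyl-CoA isomerase (log2 fold change 0.74, adjusted p = 0.00172). In that list 2 genes rose without VitD library 1, and with library size only 1 rose and 4 fell. The medians of the lists of biogenesis, the TCA cycle and fatty acid oxidation also turned below 0 when only library size was used.

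Most glycolysis and glycogen genes rose. Of 25 tested, 16 rose and 1 fell, with a median of 0.63 that stayed at 0.59 with the length trend removed and at 0.31 with library size only. Without VitD library 1, 13 rose and none fell, and 10 rose in the fit of the 7 libraries alone, while with library size only 8 rose and 2 fell. Ppp1r3c, which targets a phosphatase to glycogen and promotes its synthesis, was at 595, 661, 539 and 605 CPM in pMT/VitD and 141, 249 and 291 in VitD (log2 fold change 1.40, standard error 0.20, adjusted p = 0.000523). Every pMT/VitD library lay above every VitD library, near the Control values of 573 and 605. Aldoa, the muscle aldolase, was at 22322, 23136, 24025 and 19531 CPM against 7389, 12232 and 14121 (log2 fold change 0.98, standard error 0.21, adjusted p = 0.00499). Pfkm, the muscle phosphofructokinase, was at 3101 to 3590.3 CPM against 1346 to 2295 (log2 fold change 0.80, adjusted p = 0.00411), Pgam2, the muscle phosphoglycerate mutase, at 3567 to 5345 against 1968 to 2736 (log2 fold change 0.94, adjusted p = 0.004303), and Gapdh at 14675 to 19404 against 7037 to 11640.4 (log2 fold change 0.87, adjusted p = 0.00758). VitD library 1 held the lowest value of the 7 in each of these 5 genes.

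Fibre-type and calcium-handling genes moved in part. Of 15 fast sarcomere genes 5 rose and none fell, but 1 rose without VitD library 1 and none in the fit of the 7 libraries alone. Myoz1, a fast-fibre protein of the Z-disc, was at 4289, 4919.5, 4518 and 4354 CPM against 1253, 2517 and 3080.2 (log2 fold change 0.99, standard error 0.23, adjusted p = 0.00786), and was not called in the fit of the 7 libraries (adjusted p = 0.0524). Mylpf, the fast regulatory light chain, was at 21342 to 30942 CPM against 19984 to 25743 (adjusted p = 0.352). Of 13 slow sarcomere genes 1 rose and 2 fell, near the 9.66% and 12.2% of all genes. Without VitD library 1 these numbers were 0 and 1. Csrp3, a stretch sensor of the Z-disc, was at 146, 113, 180.4 and 185 CPM against 769.8, 367 and 198 (log2 fold change -1.51, standard error 0.34, adjusted p = 0.00665), but at -0.85 and no longer called without VitD library 1 (adjusted p = 0.0502). Casq2, the calsequestrin of slow and cardiac muscle, was at 91.7, 97.6, 65.8 and 91.9 CPM against 332, 171 and 114 (log2 fold change -1.24, standard error 0.27, adjusted p = 0.00579). Of 25 calcium-handling genes 5 rose and 3 fell, beside 9.66% and 12.2% of all genes. Without VitD library 1, 1 rose and 2 fell, beside 4.69% and 6.17% of all genes. With library size only 2 rose and 6 fell, where 5365 of all 17201 genes fell. Orai1, the channel of store-operated entry, rose (log2 fold change 0.82, adjusted p = 0.000996), and Atp2a1, the fast calcium pump, was at 16904, 18259, 21750.4 and 23759.6 CPM against 7169, 13816 and 16456 (log2 fold change 0.69, adjusted p = 0.0515). Among the muscle markers Ckm, the muscle creatine kinase, was called (log2 fold change 0.73, adjusted p = 0.0209), but not without pMT/VitD library 2 or VitD library 1 (highest adjusted p = 0.0507) or in the fit of the 7 libraries. Acta1, the adult skeletal actin, was not called (log2 fold change 0.48, adjusted p = 0.0519), and Dmd, dystrophin, fell (log2 fold change -0.79, adjusted p = 0.00535).

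**Figure D4:**
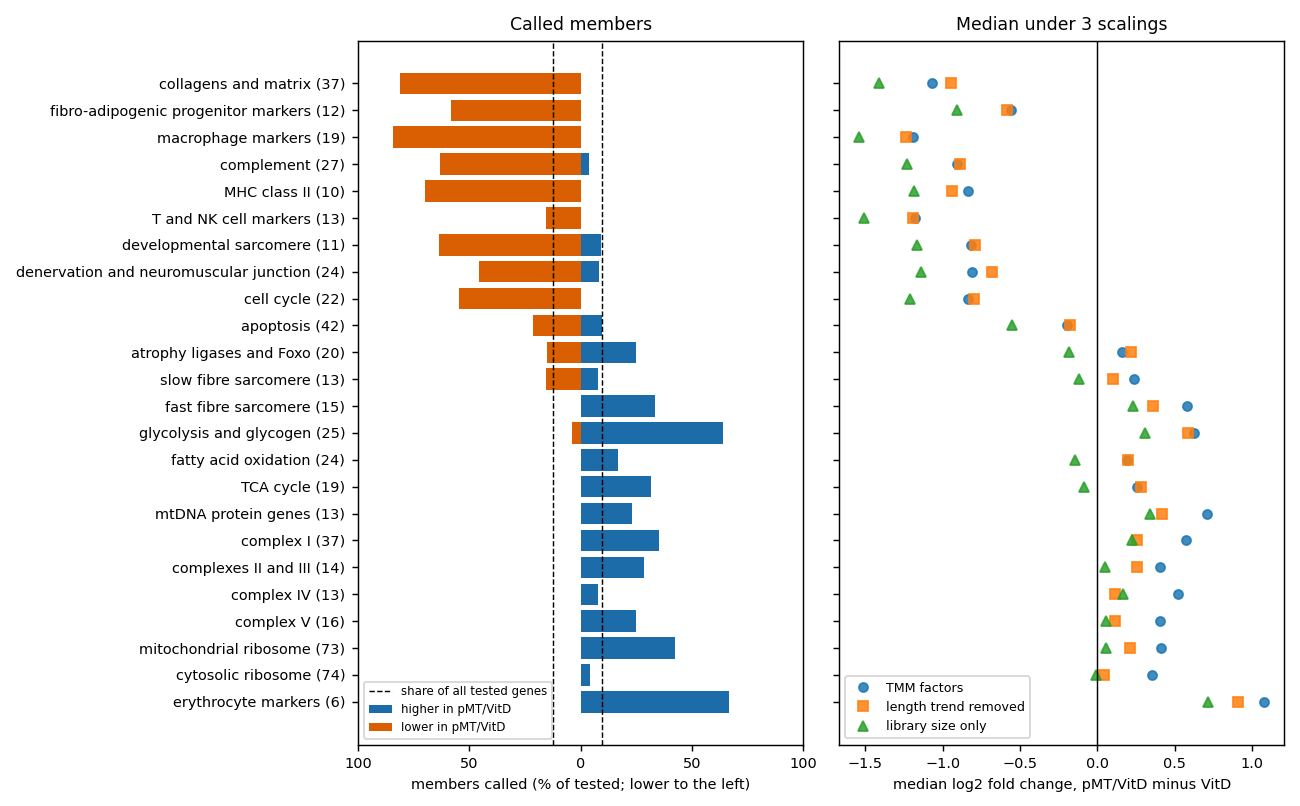
The left panel gives, for each of 24 gene lists, the percentage of tested members called higher and lower in pMT/VitD, with dashed lines at the shares of all tested genes (9.66% higher, 12.2% lower). The right panel gives the median log2 fold change of each list under TMM, with the length trend removed and with library size only, under which all genes had a median of -0.34. Collagen (-1.07) and macrophage (-1.19) medians lay far below 0 under each.

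Atrophy genes did not share a direction. Of 20 ubiquitin ligases, Foxo factors and related genes 5 rose and 3 fell, beside 9.66% and 12.2% of all genes. These numbers were 3 and 2 without VitD library 1, and 2 and 4 with library size only. Trim63, the ligase MuRF1, was at 382, 353, 319 and 282 CPM against 258, 305 and 318 (log2 fold change 0.18, adjusted p = 0.382) and was not called. Trim54, the related MuRF3, rose (log2 fold change 0.93, adjusted p = 0.00188), and Fbxo30, the ligase MUSA1, fell (log2 fold change -0.89, adjusted p = 0.000318). Mt1, a metallothionein raised in atrophy, was at 1.66, 1.95, 1.29 and 1.499 CPM against 11.6, 5.68 and 2.73 (log2 fold change -2.06, standard error 0.34, adjusted p = 0.0014002), and at -1.39 without VitD library 1. In the list of autophagy and lysosome genes 3 of 23 rose and 3 fell, near the shares of all genes (9.66% higher, 12.2% lower). Ctsb, the lysosomal cathepsin B, was among those that fell (log2 fold change -0.97, adjusted p = 0.00194). With library size only none of the list rose and 8 fell, where 5365 of all 17201 genes fell.

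The study blotted proteins of this muscle in control, surgery-only and pMT rats, and describes no blot of the VitD or pMT/VitD group. The blotted proteins, GAPDH included, correspond to 17 transcripts. Of these, 5 were called higher (Des, Akt1, Gapdh, Ndufb8 and Atp5a1) and 1 lower (Myog). Without VitD library 1, 3 were higher and 1 lower, and with library size only 1 was higher and 3 lower. Phosphorylated forms of the proteins are outside the reach of these counts. Akt1, a kinase of growth signalling, was at 122, 127, 112 and 117 CPM against 106, 93.2 and 93.8 (log2 fold change 0.29, adjusted p = 0.0466), a call that was lost without pMT/VitD library 1, 2 or 4 or VitD library 2 or 3 (highest adjusted p = 0.153) and that turned to -0.06 with library size only. For Des, Gapdh, Ndufb8, Atp5a1 and Myog the values are given above. Akt2 (log2 fold change 0.26, adjusted p = 0.164) was not called, nor were the AMPK catalytic subunits Prkaa1 (log2 fold change -0.35, adjusted p = 0.104) and Prkaa2 (log2 fold change 0.23, adjusted p = 0.511). Foxo3, the transcription factor that activates atrophy ligases, was at 2.77, 3.04, 4.19 and 11.5 CPM in pMT/VitD, where library 4 was far above the rest, and 2.54, 4.88 and 5.87 in VitD (log2 fold change 0.28, adjusted p = 0.754), and without pMT/VitD library 4 it was at -0.41. Prkab1, a regulatory subunit of AMPK outside the blot list, rose (log2 fold change 0.48, adjusted p = 0.00155). Igf2, the fetal insulin-like growth factor, was at 197, 150.2, 149.7 and 91.04 CPM against 473, 301 and 242 (log2 fold change -1.20, standard error 0.30, adjusted p = 0.0122), and lost its call without VitD library 1 (adjusted p = 0.0828).

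Bax, which opens the mitochondrial membrane in apoptosis, was at 12.2, 12.1, 9.65 and 7.01 CPM against 10.8, 9.11 and 7.44 (log2 fold change 0.16, adjusted p = 0.634), and Bcl2, which opposes it, was below 0.5 CPM in all 7 libraries (log2 fold change 0.44, adjusted p = 0.507). Of 42 apoptosis genes 9 fell and 4 rose, beside 12.2% and 9.66% of all genes, so the number that rose was near that share. Without VitD library 1, 4 fell and 3 rose, beside 6.17% and 4.69% of all genes. With library size only 26 fell and 1 rose, where 5365 of all 17201 genes fell. Apaf1, the scaffold of the apoptosome, was at 4.84, 5.43, 4.64 and 5.96 CPM against 8.53, 8.02 and 7.54 (log2 fold change -0.62, standard error 0.11, adjusted p = 0.00192). Every pMT/VitD library lay below every VitD library, while Endog, a mitochondrial nuclease released in apoptosis, lay above in each (33.5, 38.2, 33.6 and 28.03 CPM against 17.8, 18.4 and 20.2, log2 fold change 0.82, adjusted p = 0.000441). Of 22 cell cycle genes tested, 12 fell and none rose. The number that fell was 5 without VitD library 1 and 6 in the fit of the 7 libraries. The more abundant Cdk4 and Ccnd3 were not called, at means of 27.8 and 27.6 CPM in pMT/VitD against 30.2 and 30.9 in VitD. Their log2 fold changes were -0.12 (adjusted p = 0.414) and -0.16 (adjusted p = 0.305). Mki67, a marker of dividing cells, was at 5.06, 3.91, 4.54 and 3.72 CPM against 15.8, 9.75 and 6.04 (log2 fold change -1.29, adjusted p = 0.00253), Ccna2, cyclin A2, at 1.34, 1.205, 1.699 and 1.15 against 4.84, 3.23 and 2.51 (log2 fold change -1.39, adjusted p = 0.00132), and Mcm3, of the replicative helicase, at 1.49, 1.22, 1.204 and 1.36 against 4.33, 2.34 and 2.25 (log2 fold change -1.17, adjusted p = 0.00258).

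Red blood cell transcripts moved with the groups. Of 6 tested 4 were called higher, with and without VitD library 1, and none in the fit of the 7 libraries. Hbb, the beta globin, was at 637, 705, 258 and 435 CPM against 331, 215 and 170.2 (log2 fold change 1.09, adjusted p = 0.0294), with pMT/VitD library 3 below VitD library 1, so the groups overlapped. Hba-a1, an alpha globin with near-identical copies, was at 86.3, 93.4, 39.7 and 53.6 against 42.8, 27.02 and 22.9 (log2 fold change 1.14, adjusted p = 0.0251), and Alas2, the haem synthesis enzyme of red cells, at 8.41, 9.102, 3.89 and 8.19 against 4.55, 3.33 and 2.69 (log2 fold change 1.07, adjusted p = 0.00892). The calls of Hbb and Hba-a1 were lost without pMT/VitD library 1 or 2 or VitD library 2 or 3 (highest adjusted p = 0.0972 and 0.0872). The summed level of these markers was 650.2 to 1653 TPM in pMT/VitD and 581 to 1151 in VitD, and the part of blood content in other differences was not tested. Of 15 endothelial markers 1 rose and 4 fell, and of 13 adipocyte markers 1 rose and 2 fell. Of 12 Schwann cell markers 3 fell, and of 10 tendon and cartilage markers 1 rose and 2 fell. Over all genes 9.66% rose and 12.2% fell. Without VitD library 1, 1 endothelial marker rose and 2 fell, 2 adipocyte markers rose and none fell, 1 Schwann cell marker fell and no tendon or cartilage marker was called.

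Genes of vitamin D itself are read here between groups that both received it. Of 16 listed, 5 had no count in any of the 7 libraries, among them Cyp24a1, the catabolic enzyme that the active hormone induces, and 10 were tested. Vdr was at 0.562, 0.371, 0.688 and 0.856 CPM against 0.199, 0.364 and 0.442 (log2 fold change 0.89, adjusted p = 0.108) and was not called. Cyp27a1, a vitamin D 25-hydroxylase of mitochondria, was at 29.7, 25.3, 31.8 and 26.6 CPM against 17.02, 20.9 and 20.3 (log2 fold change 0.55, standard error 0.11, adjusted p = 0.003604). Rxrg, a partner receptor of Vdr that is abundant in muscle, rose (log2 fold change 0.88, adjusted p = 0.0134), though not in the fit of the 7 libraries (adjusted p = 0.0711), and Pdia3, a chaperone that also binds vitamin D, fell (log2 fold change -0.62, adjusted p = 0.00524).

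Clock genes differed in opposite directions, 3 of 17 higher and 4 lower, also without VitD library 1 or pMT/VitD library 4. Arntl, which encodes the activator Bmal1, was at 22.1, 23.8, 22.6 and 27.2 CPM against 11.4, 14.7 and 13.95 (log2 fold change 0.84, standard error 0.13, adjusted p = 0.000827). Dbp, an output factor that this activator drives, was at 22.5, 19.3, 27.1 and 15.5 CPM against 54.8, 48.6 and 46.7 (log2 fold change -1.25, standard error 0.16, adjusted p = 0.000377), and Ciart, a repressor of the clock, at 0.821, 0.816, 0.731 and 0.954 against 2.46, 2.04 and 1.94 (log2 fold change -1.37, standard error 0.21, adjusted p = 0.000836). Per2, another repressor, fell (log2 fold change -0.68, adjusted p = 0.00486). In Arntl, Dbp, Ciart and Per2 the groups did not overlap, and the time of day at which muscles were taken is not given in the sources used here, so it cannot be told apart from the treatment. The RefSeq promoter of Ciart (chr2:186112197-186112496, minus strand, GRCr8, 250 bases before to 50 after the start, 5′ to 3′) is shown because it holds the E-box CACGTG, to which the activator binds, 3 times, in capitals, from bases -93, -35 and -21.
Ciart: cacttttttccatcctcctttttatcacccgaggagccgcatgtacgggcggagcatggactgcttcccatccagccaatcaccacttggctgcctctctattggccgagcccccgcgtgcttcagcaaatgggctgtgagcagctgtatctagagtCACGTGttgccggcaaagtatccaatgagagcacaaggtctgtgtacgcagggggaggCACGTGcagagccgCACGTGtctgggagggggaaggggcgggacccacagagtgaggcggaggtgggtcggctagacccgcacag
CACGTG was in 6.65% of all windows on either strand and in 8.93% of those of all genes tested, against 8.15% of those of genes called lower and 10.5% of those of genes called higher, and the windows of Arntl, Dbp and Per2 did not hold it.

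Activity and stress genes were called in both directions. Of 23 immediate early and activity genes 4 rose, Slc25a25 among them, and 3 fell, beside 9.66% and 12.2% of all genes. Without pMT/VitD library 4, 4 rose and 11 fell, and with library size only 1 rose and 6 fell. Dusp1, a phosphatase of MAP kinases, rose (log2 fold change 0.64, adjusted p = 0.0105), and Klf6, an injury-induced zinc finger factor, fell (log2 fold change -0.81, adjusted p = 0.000481). Atf4, the factor of the amino acid response, was at 533, 550.2, 434 and 427 CPM against 221, 283 and 302 (log2 fold change 0.86, standard error 0.15, adjusted p = 0.00202). In its list 2 of 20 genes rose and 4 fell, beside the same shares of all genes, and 1 and 2 without VitD library 1. Hspa5, the main chaperone of the endoplasmic reticulum, fell (log2 fold change -0.47, adjusted p = 0.00624), but not in the fit of the 7 libraries (adjusted p = 0.0524). Of 31 proteasome genes 5 rose and of 74 genes of the cytosolic ribosome 3 rose, with none lower in either list, whereas with library size only none rose and 2 and 1 fell. The proteasome count was 0 without VitD library 1 and 9 without pMT/VitD library 4. That of the cytosolic ribosome, below the 9.66% share of all genes, was 19 without pMT/VitD library 4.

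The same difference without vitamin D, pMT against Surgery, shares no library with this comparison. Both comparisons came from the same fit, however, and VitD library 2 lay 0.0821 from Surgery library 2. Their likeness is therefore not that of separate experiments. There 334 genes were called (68 higher, 266 lower; 1.94% of those tested), and 315 of them were also called here, all in the same direction. They were 94.3% of the pMT against Surgery calls and 8.36% of the calls here. Of all 3766 genes called here, 3567 (94.7%) had the same sign without vitamin D. Over all genes the log2 fold changes of the comparisons correlated with a Pearson r of 0.588 and a Spearman rho of 0.632, as a description, since genes are not independent. Ankrd1 had log2 fold changes of -4.29 without and -5.28 with vitamin D, Postn of -1.87 and -2.64, C4a of -2.20 and -2.51, and Slc25a25 of 1.92 and 1.82. Ndufs7 had 0.25 without and 0.74 with it, Mrpl54 0.11 and 0.85, and Des 0.19 and 0.69. Whether the effect of pMT differed with vitamin D was tested as an interaction. No gene passed an adjusted p of 0.05 with the quasi-likelihood test, and 888 had an unadjusted p under 0.05. DESeq2 also gave 0, with 1073 unadjusted, whereas limma voom with sample quality weights gave 5417. Without library 4 of both pMT/VitD and pMT the quasi-likelihood test gave 325 genes (223 higher, 102 lower). Each of these left-out libraries lay closer to a library of the other group than to any of its own. Among the genes named here the smallest unadjusted interaction p-values were those of LOC100912629 (0.00432), Endog (0.00589) and Ccna2 (0.00901).

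**Figure D5:**
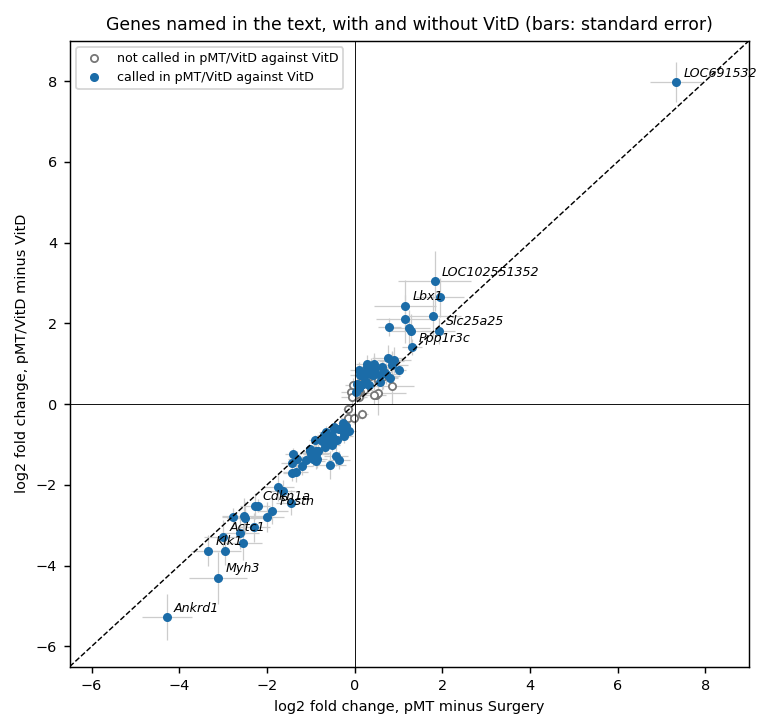
Each point is 1 of 133 genes, with its log2 fold change in pMT against Surgery on the x axis and in pMT/VitD against VitD on the y axis, standard errors as bars and the line of equal change dashed. Ankrd1, at -4.29 and -5.28, and LOC691532, at 7.34 and 7.97, lie at the ends of the range.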

How the data were processed

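Groups and replicate numbers were taken from the sample labels of paired-end NovaSeq libraries made from total RNA of multifidus muscle. Per the labels, the tools of the authors were Trimmomatic 0.38 for trimming, HISAT2 2.1.0 for alignment to rn6, SAMtools 1.9, StringTie 2.1.3b for quantification and edgeR 3.40.2. The deposited read counts are whole numbers per gene with no normalization, and every test used them. The deposited TPM values served for the level of gene lists and, as count over TPM, for a relative gene length. The deposited FPKM values were not used. How strand and reads aligned to several genes were handled is not given in the sources used here.

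All 15 libraries entered 1 fit in R 4.3.3 with edgeR 4.0.16 (filterByExpr, TMM factors, robust glmQLFit, glmQLFTest). A gene was called when its Benjamini-Hochberg adjusted p over all 17201 genes tested was under 0.05. Log2 fold changes and their standard errors are from this fit, and CPM values are counts-per-million of TMM-scaled library size. On simulated counts for pMT/VitD against VitD over 17201 genes, the test recovered 74 of 100 genes changed 2-fold and 99 of 100 changed 4-fold, with 4 false calls. The simulation drew libraries independently, with the same spread per gene in all groups, and changed only genes above a minimum mean count. It held no outlying library and no trend with gene length, so its few false calls cannot be carried over to these data. Alternatives used limma 3.58.1, DESeq2 1.42.0, other scaling and filters, removal of the trend with gene length (loess, span 0.5, of each library's deviation), a replicate block and fewer libraries.

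Genes were named by a rule. It took the 10 higher and 10 lower called genes with the largest fold change whose groups did not overlap and whose mean log2 CPM reached 1. From each of 49 gene lists it took the 3 most abundant members and up to 3 with the smallest p, and it added the transcripts of the blotted proteins. Not every gene this rule allowed is described. The comparison, the lists and the genes described were chosen with earlier results of these data known. Lists are reported by counts and medians. Each of the 7 libraries held at least 52342134 counts, so the number of libraries limits the precision more than counting error for all but the genes of lowest count.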

Additional observations from a re-analysis of the deposited data

Results flagged for a closer look

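In groups of 4 libraries, a value was singled out where the gap between the highest or lowest library and its nearest neighbour was above the 95% critical value of Dixon's ratio to the range of the group. This was tested for 137 measures in the pMT/VitD group, 5 of which met it where chance alone gives about 7 (1 in 20), and all 5 concerned pMT/VitD library 4. Its TMM factor was 0.982 where the other 3 libraries had 0.849 to 0.867. Serpinh1, the collagen chaperone, was at 182 CPM there and at 148 to 152 in the others. Ndufs7, the complex I subunit, was at 198 CPM against 259.7 to 270.5, and Eci1, the enoyl-CoA isomerase, at 60.4 against 77.8 to 81.3. Foxo3 was at 11.5 CPM against 2.77 to 4.19, and its log2 fold change against VitD was -0.41 without this library. The VitD group, with 3 libraries, was not tested in this way.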

How the results depend on the processing

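The count of 3766 called genes stayed within 1.5 times under RLE factors, other count filters, the length correction, DESeq2 (4553) and the replicate block (2705). It was 5758 with library size only, 8406 with limma voom with sample quality weights, 1816 in a fit of the 7 libraries alone, 1698 when tested against a fold change of 1.2 (glmTreat), and 1122 or 898 by exactTest with a fold change of 2 and an unadjusted or adjusted p. Leaving out each library gave 1855 to 4561 genes, the lowest without VitD library 1. The interaction count of 0 became 5417 with voom weights and 325 without library 4 of pMT/VitD and pMT (where the main count was 5497) and was 0 when each library was left out. Why the counts moved was not tested. Deviations of same-numbered libraries from their group means correlated with r 0.375, -0.124 and 0.0486. So few libraries per group cannot decide whether the numbers pair them, and the labels do not say. With the replicate block, 8 of the 109 called genes described lost the call. In the 7 libraries alone the block gave 3186 called genes, against 1816 without it. Without the Control and Surgery libraries, an alternative chosen after seeing the data, 2762 genes were called, and 3242 without pMT/VitD library 4 and VitD library 1, likewise added. With library size only the log2 fold change turned to -0.0195 for Sdhb, -0.0278 for Uqcrc2, -0.0192 for Atp5b, -0.108 for Ppargc1a, -0.0724 for Mylpf, -0.162 for Trim63, -0.0574 for Akt1, -0.0752 for Akt2, -0.203 for Bax and -0.0812 for Prkaa2, and with the length trend removed to -0.00141 for Mylpf and -0.0661 for Bax. Leaving out single libraries took Prkaa2 from -0.0512 (VitD library 1) to 0.486 (VitD library 3) and Foxo3 from -0.415 (pMT/VitD library 4) to 0.543 (VitD library 3), and Prkaa2 was at -0.176 without VitD library 1 and pMT/VitD library 4. Foxo3 was also at -0.558 with voom weights, -0.414 without library 4 of pMT/VitD and pMT, -0.354 with the 7 libraries and the block, -0.323 with the length trend removed and without pMT/VitD library 4, and -0.692 without that library and VitD library 1. Among these only Akt1 had been called.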
